A study of Mus musculus with 7 samples.

Results

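The genes described here make cysteine, oxidise it towards taurine, or build it into glutathione. They are 10 named genes of the 18951 in the gene table, all present in it: Cth, Cbs, Cdo1, Csad, Gadl1, Ado, Got1, Gclc, Gclm and Gss. They were chosen because the normalized count of Cdo1 was seen to double in Nlrp2-null pools. Values that compare the genotypes in these 10 genes are therefore a description and carry no test. RNA had been sequenced from pools of about 150 ovulated oocytes, stripped of cumulus cells with hyaluronidase, each from 3 to 4 C57BL/6 females of 1 genotype aged 4 weeks. There were 3 wild-type (WT) pools and 4 Nlrp2-null pools, with no treatment named for either. The labels do not say how the null allele was made, and NLRP2 is a maternal effect protein stored in the egg.

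In mammalian cells cysteine is made from the homocysteine of the methionine cycle by cystathionine beta-synthase (CBS) and then cystathionine gamma-lyase (CTH). Cysteine dioxygenase (CDO1) oxidises it to cysteine sulfinate, which CSAD decarboxylates to hypotaurine, the precursor of taurine, and glutamate-cysteine ligase (GCLC with GCLM) followed by glutathione synthetase (GSS) turns it into glutathione. Oocytes build up glutathione as they mature and use it to unpack the sperm nucleus after fertilization, and taurine and hypotaurine are abundant in the fluid of the oviduct.

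Values are normalized counts, that is reads per gene divided by a size factor per pool, and 71073973 to 96330083 reads per pool stood behind them. Nlrp2 was at 15527, 20130 and 16792 in WT pools 1 to 3 and at 107, 8.19, 1.96 and 63.8 in null pools 1 to 4, as the genotype labels say. All 16 oocyte markers examined, among them Zp3 and Gdf9, were above 0 in every pool, and their summed normalized count was 1097831 to 1166570 in WT and 1119927 to 1260658 in null pools. Of 26 cumulus and granulosa markers all were in the table. A higher mean in null pools was found for 23 of them, beside 7648 of all 15071 genes tested. At an adjusted p under 0.05, limma called 0 of the 26 markers. Their sum was 45333 to 67601 in WT and 55251 to 77540 in null pools, highest in null 3 and null 4, with Amh at 0 in 5 pools and Areg at 0 in 5. The sum for 8 oviduct epithelium markers was 21090 to 31039 in WT and 29749 to 37297 in null pools, with Foxj1 at 0 in 6 pools and Pax8 at 0 in 4. In such bulk samples fewer cells of a type and less RNA per cell cannot be told apart. The library numbers in the labels fall into a lower range (WT 1, WT 2, null 1, null 2) and a higher range (WT 3, null 3, null 4), which was treated as a possible batch.

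Promoter sequences show where regulators of this pathway could be looked for in the genome. RefSeq windows (GRCm38.p6, 250 bases before to 50 after the gene start) were found for 7 of the 10 genes. Cdo1, Cth and Gclc had no window and were not searched. The windows found were searched on both strands for TGACNNNGC and for TGATGNAA. The first is the core of the antioxidant response element read by NFE2L2 (NRF2). The second is a form of the amino acid response element read by ATF4. These motifs do not overlap in the windows shown. Of the 7 genes Gclm and Gadl1 held TGACNNNGC and Got1 held TGATGNAA, beside 12.4% and 3.97% of 32851 windows of the same length. Stretches of the Gclm and Got1 promoters that lie in no annotated exon are given 5′ to 3′ on the gene's strand. The capitals mark the match, which in both reads as the searched letters on the other strand. It lies 134 to 126 bases before the start of Gclm (chr3:122245363-122245491, plus strand) and 102 to 95 bases before the start of Got1 (chr19:43524640-43524767, minus strand).
Gclm: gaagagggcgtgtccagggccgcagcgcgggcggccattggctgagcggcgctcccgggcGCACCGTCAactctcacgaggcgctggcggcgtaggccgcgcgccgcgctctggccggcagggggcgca
Got1: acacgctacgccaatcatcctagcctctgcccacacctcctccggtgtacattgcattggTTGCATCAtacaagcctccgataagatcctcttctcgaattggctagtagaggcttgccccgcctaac
These matches are a description of the letters and not of a factor's binding, which was not measured.

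In WT oocytes Cdo1 was by far the most abundant of the 10 transcripts. Levels of different genes were compared as normalized counts per kilobase of annotated exon. By that measure Cdo1 stood at 10744, 6940 and 8171 in WT pools 1 to 3, a mean of 8619 ± 1941 (SD, n = 3). It ranked between 209 and 403 among the 18179 symbols that matched 1 annotated gene, whose median level was 59.7. Got1, the cytosolic aspartate aminotransferase that can also take cysteine sulfinate, came next at 1062 ± 174 per kilobase, so that the Cdo1 level was 8.12 times that of the next member. Every WT value of Cdo1 lay above every WT value of the other 9 genes.

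A middle group of 4 genes followed, with WT means from 311 to 507 normalized counts per kilobase. Gclm, the modifier subunit of glutamate-cysteine ligase, was at 507 ± 13.9, Gclc, its catalytic subunit, at 438 ± 62.8, and Csad, the taurine pathway decarboxylase, at 423 ± 56.6. The WT ranges of Gclc (389 to 509) and Csad (358 to 461) overlapped, as did those of Gclm (497 to 523) and Gclc, so this part of the order lies within the spread of the pools. Cth, at 311 ± 32.8, lay below Csad in each WT pool. With the longest annotated transcript as length, Csad (712) came directly after Got1, ahead of Gclm and Gclc, and the order was otherwise the same.

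The remaining 4 genes were low. Ado, which oxidises cysteamine to hypotaurine, was at 54.8 ± 19.0 per kilobase and Gss, which completes glutathione, at 21.0 ± 19.6, and their WT ranges (43.2 to 76.8 and 7.55 to 43.5) overlapped slightly. Cbs (6.20 ± 6.16) rested on 89, 46 and 2 reads in WT pools 1 to 3, with only WT 3 near the limit of detection. Gadl1, a relative of Csad that makes beta-alanine from aspartate (2.02 ± 2.84), rested on 3, 22 and 0 reads. The WT ranges of Cbs and Gadl1 overlapped too. The levels per kilobase thus put the first and the second step of transsulfuration far apart, with Cth well above Cbs in each WT pool.

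**Figure D1:**
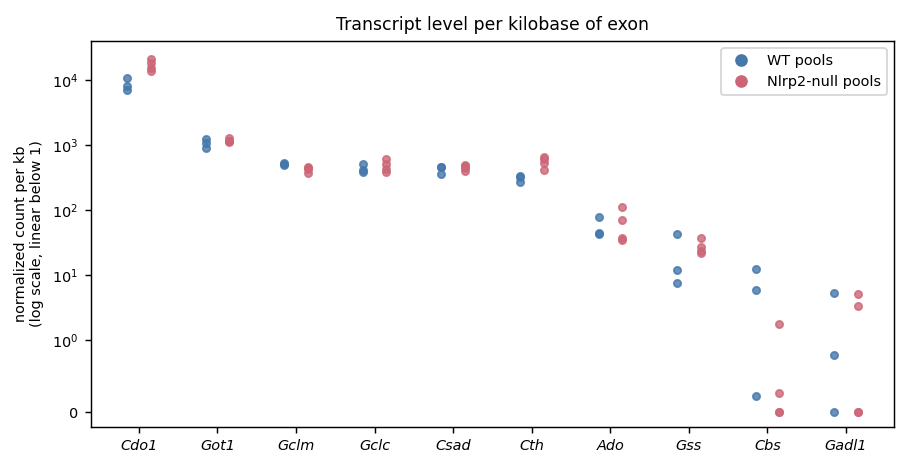
Normalized count per kilobase of exon (log scale, linear below 1) for each of the 10 genes, ordered by the WT mean, with 1 point per pool (3 WT, 4 Nlrp2-null). Cdo1 lies between 6940 and 10744 in WT pools, above every other gene, and Cbs and Gadl1 reach 0 in some pools.

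Between genotypes, 3 of the 10 genes had groups that did not overlap: Cdo1 and Cth with higher values and Gclm with lower values in every null pool. Over all 15071 genes tested, 9.91% had groups that did not overlap, 4.74% higher and 5.16% lower in null pools. Since the genes were chosen from this contrast, nothing is read from that count. Gadl1 was too low to enter the fit, which took genes with a mean of at least 10 normalized counts. The other 9 log2 differences had a median of 0.13, with 7 positive and 2 negative. Over all 15071 genes the median was 0.0056, with 7648 positive and 7423 negative. Of the 2 negative genes, Cbs passed the filter only through its WT pools (mean 46.4, against 3.82 in null pools). Nothing is read from these signs either.

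**Figure D2:**
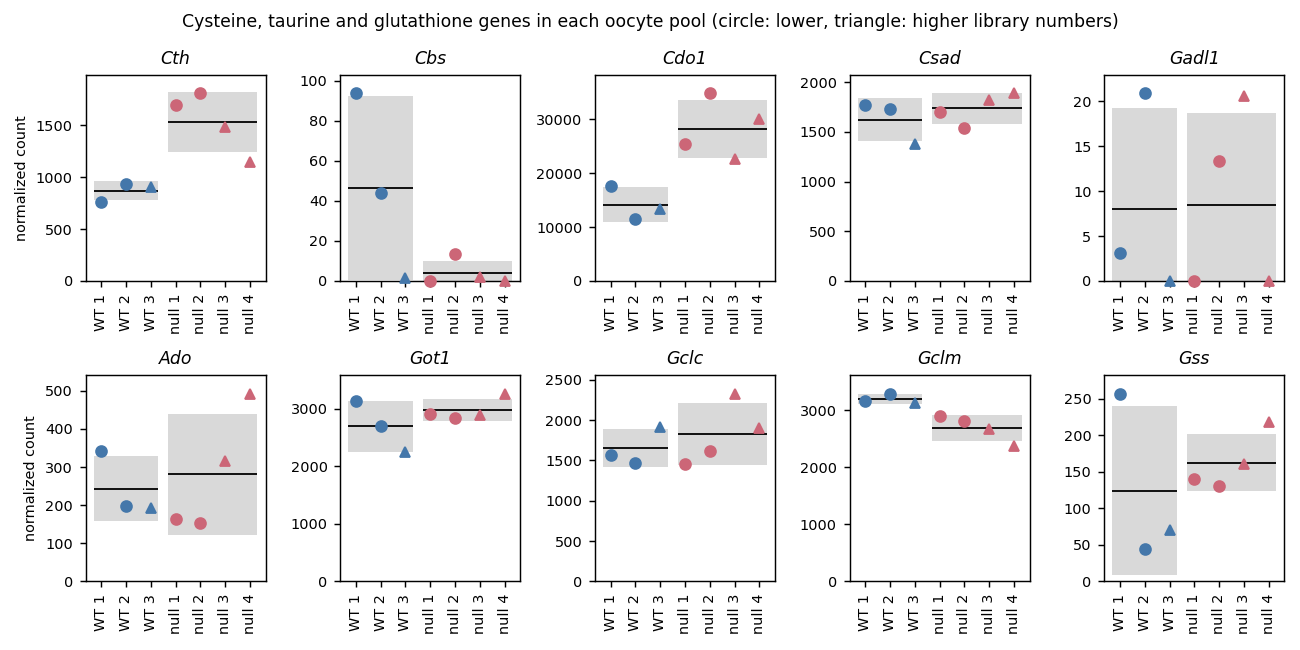
Normalized count of each gene in each pool (axis from 0), in the order cysteine synthesis, oxidation and taurine, glutathione. Lines are group means and grey bands are ± 1 SD (3 WT pools in blue, 4 Nlrp2-null pools in red), and the symbol shows the library-number range. The 4 null pools lie above all WT pools for Cdo1 and Cth and below them for Gclm.

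The 2 enzymes of cysteine synthesis had unlike patterns, with groups apart for Cth and overlapping for Cbs. Cth, the enzyme that releases cysteine from cystathionine (chr3:157894248-157925077, minus strand, GRCm38), had normalized counts of 763, 931 and 909 in WT pools 1 to 3. In null pools 1 to 4 it had 1690, 1806, 1486 and 1142. The lowest null pool, null 4, was above the highest WT pool, and null 1 and null 2 were the highest of all. The means were 868 ± 91.6 (SD, n = 3) and 1531 ± 291 (SD, n = 4), a fold of 1.76. On the scale of log2(normalized count + 1) the difference was 0.80 (SE 0.194). Within the lower range of library numbers it was 1.05 and within the higher range 0.52. No annotated exon of another gene overlaps Cth.

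Cth had its lowest WT and lowest null values in WT 1 and null 4, which had the highest sum of cumulus markers in their genotype. In a fit adjusted for the mean log2 level of the cumulus markers the log2 difference of Cth was 1.12, beside 0.80 unadjusted. In the pools without null 3 and null 4 it was 1.01. Of the 26 markers 23 had a higher mean in null pools, so that covariate is not independent of genotype. The part of cumulus RNA in the Cth values was not tested beyond these numbers.

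Cbs, the enzyme before Cth (chr17:31608894-31637238, minus strand), was scarce and uneven. Its normalized counts were 93.8, 43.7 and 1.65 in WT pools and 0, 13.3, 1.96 and 0 in null pools. They rest on 89, 46 and 2 reads in WT and on 0, 13, 2 and 0 reads in null pools 1 to 4. WT 1 and WT 2 were above all null pools, while WT 3 lay among them, so the groups overlapped. The exact 95% Poisson intervals were 71.5 to 110 reads in WT 1, 33.7 to 61.4 in WT 2, 0.242 to 7.22 in WT 3 and 6.92 to 22.2 in null 2, and they cover counting error only. For a count of 0 a floor of 3 reads was used, which is 3.25 normalized counts in null 1 and 3.14 in null 4. The two-sided exact bound for 0 is higher, at 3.69 reads. The log2 difference of -3.13 had an SE of 1.68 and was -4.10 within the lower and -0.62 within the higher range of library numbers.

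Cdo1, on chromosome 18, encodes the enzyme that commits cysteine to sulfinate and taurine. Its normalized counts were 17664, 11410 and 13433 in WT pools 1 to 3 and 25404, 34782, 22619 and 30041 in null pools 1 to 4. The lowest null pool, null 3, lay above the highest WT pool, WT 1, and null 2 was the highest. The means were 14169 ± 3191 and 28211 ± 5344, a log2 difference of 1.00 (SE 0.147). The difference was 1.07 within the lower and 0.96 within the higher range of library numbers. It was 0.82 in the fit adjusted for the cumulus markers and 1.09 without null 3 and null 4. Null 2 had the highest Cdo1 value and a cumulus marker sum of 55391, below that of WT 1, at 67601. Among the WT pools Cdo1 was highest in WT 1, which also had the highest cumulus marker sum of the 3. The part of cumulus RNA in the Cdo1 values was not tested beyond these numbers. By rank per kilobase Cdo1 stood between 98 and 163 in null pools.

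**Figure D3:**
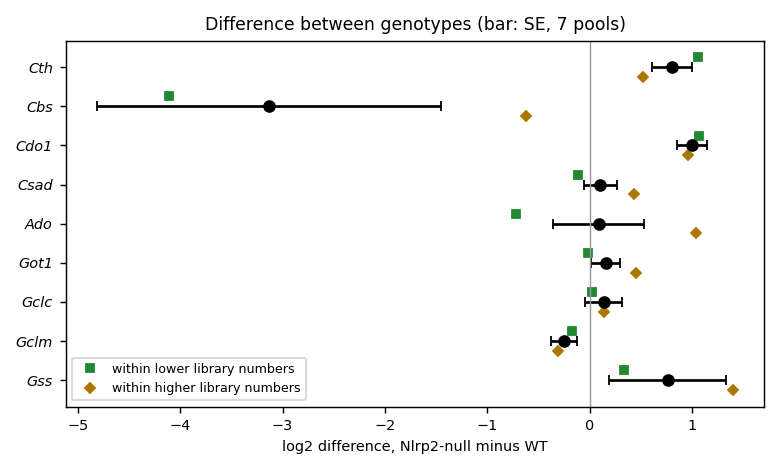
Log2 difference, Nlrp2-null minus WT, on the scale of log2(normalized count + 1) for the 9 genes with a mean of at least 10; black points with bars are the fitted value ± SE over 7 pools, squares and diamonds the differences within the lower and the higher library numbers. Cdo1, Cth, Cbs, Gclm, Gclc and Gss have the same sign in both ranges, and Ado lies at -0.72 in the lower and 1.03 in the higher range.

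The genes that act after or beside Cdo1 on the way to taurine had overlapping groups. Csad (chr15:102176999-102204724, minus strand) was at 1768, 1725 and 1372 in WT and 1702, 1534, 1817 and 1887 in null pools. WT 3 was the lowest of the 7 and null 4 the highest, with the others between. The log2 difference was 0.10 (SE 0.159), with -0.11 within the lower and 0.43 within the higher range of library numbers. Within pools the ratio of Cdo1 to Csad, each per kilobase, was 23.3, 15.4 and 22.8 in WT pools. In null pools it was 34.8, 52.8, 29.0 and 37.1. That it was higher in every null pool restates the Cdo1 difference for which the genes were chosen. The ratios of Cdo1 to Ado and of Cdo1 to Cth had overlapping groups. An exon of Zfp740 on the opposite strand overlaps 7.26% of the Csad exon bases, and no source used here says if the counting was stranded.

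Ado, the other enzyme that leads to hypotaurine and a relative of CDO1 (chr10:67544511-67548955, minus strand), parted the pools in another way. Its normalized counts were 341, 198 and 192 in WT and 163, 153, 315 and 493 in null pools. It was highest in null 4, WT 1 and null 3, which had the 3 highest cumulus marker sums (77540, 67601 and 74287), and lowest in null 1 and null 2. The log2 difference was 0.085 (SE 0.441) over all pools, -0.72 within the lower and 1.03 within the higher range of library numbers, and -0.78 in the fit adjusted for the cumulus markers. The part of cumulus RNA in these values was not tested beyond that fit.

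Gadl1 (chr9:115909455-116076176, plus strand) was almost absent, with 3, 22 and 0 reads in WT and 0, 13, 21 and 0 reads in null pools. The groups overlapped, and no fold is given. For its 3 zeros the same floor of 3 reads is 2.47 normalized counts in WT 3, 3.25 in null 1 and 3.14 in null 4. An antisense pseudogene exon overlaps 4.08% of its exon bases.

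Got1 (chr19:43499752-43524605, minus strand) had 3135, 2699 and 2253 normalized counts in WT and 2908, 2837, 2894 and 3265 in null pools. The groups overlapped, with WT 3 the lowest and null 4 the highest of the 7. The log2 difference was 0.15 (SE 0.139), with -0.018 within the lower and 0.45 within the higher range of library numbers.

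Of the glutathione genes, Gclm alone had groups apart. Gclm (chr3:122245557-122270732, plus strand) was the steadiest of the 10 in WT pools, at 3152, 3287 and 3124 normalized counts, a coefficient of variation of 2.75%. Null pools 1 to 4 had 2887, 2803, 2663 and 2369. All 4 null pools lay below all WT pools, with null 4 the lowest. The means were 3188 ± 87.6 and 2681 ± 227, a fold of 0.841 and a log2 difference of -0.25 (SE 0.126). It was -0.18 within the lower and -0.31 within the higher range of library numbers, and -0.14 in the fit adjusted for the cumulus markers. Null 3 and null 4 combined the lowest Gclm values with the highest cumulus marker sums, and both belong to the higher library numbers. WT 1, with the highest marker sum of the WT pools, had a Gclm value between those of WT 3 and WT 2. The part of cumulus RNA in the Gclm values was not tested beyond these numbers. Exons of 2 other annotated genes, one of them a pseudogene on the same strand, cover 8.58% of the Gclm exon bases, and the share of its reads that falls there was not measured.

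Gclc, the catalytic partner (chr9:77754535-77794485, plus strand), had 1573, 1464 and 1917 normalized counts in WT and 1461, 1620, 2329 and 1905 in null pools. The groups overlapped, and WT 3, null 3 and null 4, the pools of the higher library numbers, were the 3 highest. The log2 difference was 0.13 (SE 0.18), 0.020 within the lower and 0.14 within the higher range. The ratio of Gclc to Gclm per kilobase was 0.834, 0.744 and 1.03 in WT and 0.845, 0.966, 1.46 and 1.34 in null pools. This ratio was highest in null 3, null 4 and WT 3, the pools of the higher library numbers. Null 1 and null 2 lay within the WT range.

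Gss (chr2:155563181-155592810, minus strand) had 257, 44.7 and 70.8 normalized counts in WT and 140, 131, 161 and 219 in null pools. WT 1 was the highest of the 7 and WT 2 the lowest, so the null pools lay inside the WT range. The order of the 3 highest pools, WT 1, null 4 and null 3, held the 3 pools whose cumulus markers summed highest, as for Ado. The log2 difference was 0.76 (SE 0.571), or -0.16 in the fit adjusted for the cumulus markers. It was 1.49 without WT 1, 0.24 without WT 2 and 0.39 in edgeR and DESeq2 on recovered reads. Within the lower and the higher range of library numbers it was 0.33 and 1.39. Exons of 3 genes on the opposite strand, Acss2 and a pair of antisense RNAs, cover 18.6% of the Gss exon bases, so that its reads may include theirs.

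**Figure D4:**
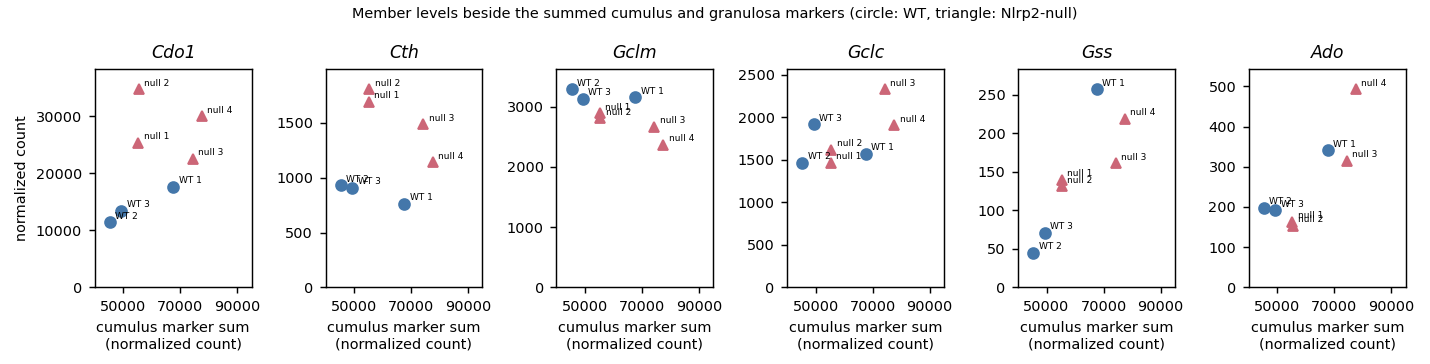
Normalized count of 6 genes (vertical axis, from 0) against the summed normalized count of 26 cumulus and granulosa markers, 1 point per pool (circles WT, triangles Nlrp2-null). Ado and Gss are highest in WT 1, null 3 and null 4, whose marker sums are the highest. For Cdo1 and Cth every null pool lies above every WT pool, which would hold on any horizontal axis. The part of cumulus RNA in these values was not tested.

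Genes of the neighbouring pathways showed no call. Of 69 such genes, set out in 8 lists, 66 were in the table and 61 were tested. With p values adjusted over all genes, limma called 0 of them at the 0.05 threshold, as did edgeR and DESeq2, which left 7 without an adjusted p. Over all 15071 genes limma called 0.0664%, edgeR 0.0464% and DESeq2 1.33%. In limma 9 of the 61 had an unadjusted p under 0.05, 6 with higher and 3 with lower values in null pools, beside 10.2% of all genes. Groups did not overlap in 2 of the 61, 1 higher and 1 lower in null pools, beside 9.91% of all genes. Positive log2 differences numbered 37 and negative ones 24, with a median of 0.066.

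Upstream of cysteine, 10 methionine cycle genes had a median log2 difference of 0.0095. Ahcyl2, a relative of the hydrolase that frees homocysteine, had the smallest p, at 3266 ± 515 normalized counts in WT and 2330 ± 318 in null pools (log2 difference -0.48, SE 0.152, limma adjusted p = 0.292). Its WT range reached down to 2716, within that of null pools, which went up to 2730. Among 8 genes that break cysteine down to sulfide, sulfite and sulfate the median was 0.14. Got2, the mitochondrial counterpart of Got1, was at 3043 ± 739 and 4065 ± 313 (0.44, SE 0.148, limma adjusted p = 0.324), with WT 1 (3897) among the null pools.

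Slc6a6, the taurine transporter, was the neighbouring gene whose values were higher in every null pool. It was at 18298, 16967 and 16822 in WT and 20380, 19535, 21171 and 22413 in null pools. The lowest null pool was above the highest WT pool, with a log2 difference of 0.26 (SE 0.0846, limma adjusted p = 0.297). Over the 4 tested genes of that list the median was -0.013. In the list of 8 cystine and cysteine transporters the median was 0.088. Slc1a4, a neutral amino acid transporter, was low, at 11.2 ± 9.05 and 59.0 ± 54.1 (2.44, SE 1.11, limma adjusted p = 0.477). Slc1a1, the glutamate and cysteine carrier EAAT3, chosen after its values were seen, was the neighbouring gene whose values were lower in every null pool, at 494, 565 and 451 in WT and 331, 437, 330 and 264 in null pools (limma adjusted p = 0.506).

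Cysteine's other uses were also without a call. Of 10 glutathione turnover genes Anpep, the aminopeptidase that splits cysteinylglycine, had the smallest p, at 56.0 ± 77.7 and 171 ± 107 (2.61, SE 0.935, limma adjusted p = 0.364). Its log2 difference was 0.71 in the fit adjusted for the cumulus markers, 1.45 without WT 2 and 3.91 without WT 1. In edgeR and DESeq2 on recovered reads it was 1.61. Of 7 genes of coenzyme A synthesis Pank1, a pantothenate kinase, was at 78.5 ± 65.0 and 243 ± 211 (1.65, SE 0.687, limma adjusted p = 0.436). Its log2 difference was 0.31 in the fit adjusted for the cumulus markers and 0.96 without WT 3. Of 6 genes that pass cysteine to iron-sulfur clusters or tRNA, Cars, the cytosolic cysteinyl-tRNA synthetase, was at 1312 ± 227 and 992 ± 144 (-0.40, SE 0.194, limma adjusted p = 0.505). The medians of these 3 lists were 0.10, 0.12 and -0.071.

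Among 8 regulators Atf4, the transcription factor of the amino acid response, had the smallest p. Its normalized counts were 6877, 4619 and 4201 in WT and 6985, 5684, 7640 and 7326 in null pools. WT 1 lay above null 2, so the groups overlapped (log2 difference 0.43, SE 0.154, limma adjusted p = 0.369). In the fit adjusted for the cumulus markers the log2 difference was 0.18, and it was 0.28 without WT 3 and 0.64 without WT 1. The list's median was -0.15.

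**Figure D5:**
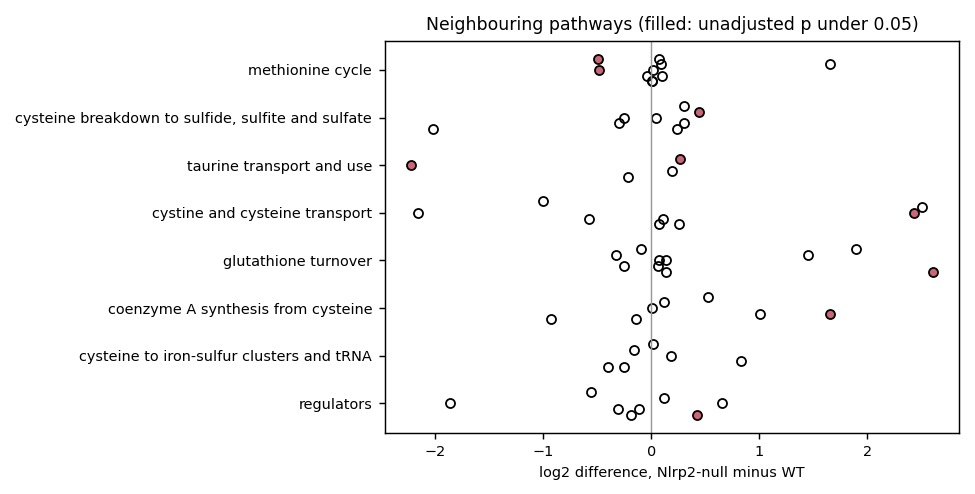
Log2 difference, Nlrp2-null minus WT, of the 61 tested genes of 8 neighbouring lists, 1 point per gene; filled points had an unadjusted limma p under 0.05. The 9 filled points spread over both sides of 0, and none passed after adjustment over all genes.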

How the data were processed

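RNA-seq of 3 WT and 4 Nlrp2-null oocyte pools was used. The gene table that the authors deposited gives 1 signal for each symbol in each pool, normalized counts made by dividing counts by a size factor, per the file headers and names. Dividing by the value of 1 read in each pool gave whole numbers, within 0.01, for 100% of values. The submitters' processing notes list 2 aligners (STAR 2.5.0a, TopHat2 2.0.9), 2 counters (featureCounts 1.5.0-p1, HTSeq), DESeq2 1.22.2 and the older DESeq, HOMER, and the builds mm10 and GRCm38. Which of them made this table was not given in the sources used. A second deposited table of assembled transcripts was not used, since no row could be matched to these genes. Libraries were amplified, so reads are not independent molecules.

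Values were taken to log2 after adding 1 and fitted with limma 3.58.1 in R 4.3.3, with a trended prior variance and the contrast null minus WT, over 15071 genes with a mean of at least 10, with calls at a Benjamini-Hochberg adjusted p under 0.05. Adding 1 shrinks the change of genes near 0. The log2 difference of a low, uneven gene can still exceed that from count models, as for Anpep and Gss. edgeR 4.0.16 and DESeq2 1.42.0 on recovered reads were alternatives; the 3 tools and the recovery of reads were tested on simulated data. Other alternatives changed the pseudocount, filter, scaling, variance model, covariates or pools. The members, the lists and the tests were chosen with earlier results of these data known. Named genes are the 10 members and, per neighbouring list, any called gene and the gene with the smallest p; Slc1a1 was added after its values were seen. Lengths and positions come from GENCODE M21 (GRCm38), with exons of all transcripts of a gene merged. Pools of 1 genotype differed by more than sampling noise (lowest chi-square per degree of freedom 36.6) and were treated as separate replicates.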

Additional observations from a re-analysis of the deposited data

Results flagged for a closer look

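In 2 of the 10 genes 1 null pool stood apart from the other 3 by more than the 95% critical value of Dixon's test. Cbs was at 13.3 normalized counts in null 2, with a gap of 0.853 of the range, and at 0 to 1.96 in the other null pools. Got1 was at 3265 in null 4, with a gap of 0.834 of the range, and at 2837 to 2908 in the other null pools. For normally spread values chance flags about 1 in 20 such groups. That rate need not hold for Cbs, which was at 0 in null 1 and null 4.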

How the results depend on the processing

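The log2 differences of Cdo1 (0.82 to 1.17), Cth (0.71 to 1.12), Gclm (-0.31 to -0.14) and Cbs (-4.67 to -1.64) kept their sign under each alternative that gave a value, as did Got1 (0.0032 to 0.27). Those of Csad, Gclc, Gss and Ado took both signs. The groups of Cdo1, Cth and Gclm did not overlap, so leaving out pools could not change their sign. Cbs passed the filter only through its WT pools, with a mean of 46.4 normalized counts against 3.82 in null pools. Its WT mean rests on WT 1 and WT 2. The genes were chosen from this contrast, so the kept signs are a description and no test. The median over the tested members, 0.13, was -0.015 in the fit adjusted for the mean log2 level of the cumulus markers and 0.0037 without null 3 and null 4. Leaving out 1 pool at a time gave 0.031 (without WT 3) to 0.27 (without WT 1); without null 1 it was 0.23. The cause was not tested. The number of called genes in the neighbouring lists was 0 under all 21 alternatives. Over all genes the main fit called 10 and DESeq2 called 200. Limma without the trended variance, and the fit without null 3 and null 4, called 0 over all genes. With so few calls in most settings, 0 in the neighbouring lists was likely beforehand and says little. None of the 9 genes named from these lists changed sign or was called, with adjusted p values from 0.0825 to 0.941. With the replicate number of the titles as a replicate block the members' median was 0.11 and 0 neighbouring genes were called. Null 4 is alone in its block, so this median equals that without null 4. Deviations of same-numbered pools from their group means correlated at -0.16, 0.019 and -0.012. These values show no pairing by number, but so few pools cannot exclude it. The Cdo1 level per kilobase in WT pools was 7556 to 9458 with 1 WT pool left out. Depth limits the zeros of Cbs and Gadl1, but both also varied between pools of 1 genotype by more than counting error.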
